A study of Homo sapiens with 40 samples.

Results

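The regions described here were windows (bins) of 25000 bases that lay wholly inside 1 protein-coding gene and carried H3K27me3 peaks in cells without NSD2 and in no library of cells that kept it. The members were chosen from the peak lists themselves. A bin was a member when no base of it lay in a peak in any of 14 libraries with NSD2 and when at least 1 base lay in a peak in 12 or more of 16 libraries without it. Chromosomes 1, 4, 18, 19 and X were left out by the rule. There were 1919 member bins among 28688 bins wholly inside 1 gene on these chromosomes (6.69%), out of 121168 bins on chromosomes 1 to 22 and X. They fell in 919 of the 5778 genes that held at least 1 such bin (15.9%).

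KMS-11 is a human myeloma line with the t(4;14) translocation, which places NSD2 under immunoglobulin enhancers so that it is overexpressed. H3K27me3 was mapped by CUT&Tag, in which an antibody guides a transposase to the modified chromatin. The libraries without NSD2 were 4 from NSD2 KO clones (NSD2KO#3 and NSD2KO#12, 2 each, untreated) and 12 from NSD2-dTAG knock-in clones (NSD2dTAG#8 and NSD2dTAG#11, 2 each after 7, 14 and 21 days of 100 nM dTAGV-1). The libraries with NSD2 were 4 of the same knock-in clones at day 0 (untreated), 8 of the wild-type parental line of those clones (dTAGparental, 2 each at days 0, 7, 14 and 21 of the compound, dose not stated for it) and 2 of the untreated wild-type parental line of the knockouts (NSD2KOparental). dTAGV-1 is a degrader that brings a dTAG-fused protein to the VHL ubiquitin ligase. Each KO or knock-in line is 1 clone, the days of 1 clone are not separate clones, and the peak lists do not show whether NSD2 protein was gone. Replicates of the clones are biological according to the series text, and for the parental lines, for which no label names separate cultures, the spread may be technical.

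H3K27me3 is laid down by the methyltransferase complex PRC2, usually over the CpG-rich promoters of genes that are kept silent, and from there it can spread along chromatin. NSD2 dimethylates lysine 36 of the same histone tail, and H3K36me2 hinders PRC2 on that tail. H3K36me2 is found over gene bodies and between genes, and in t(4;14) myeloma the excess of NSD2 widens its domains. Inside genes, either mark can be found.

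Promoter windows at start sites inside member bins are printed here. They show sequence that lay in the bins, whether or not it was covered. They are 3 of the 11 windows with a peak in 10 or more libraries without NSD2, those richest in CG and 1 of the gene with the most member bins. The 3 are not the 3 covered in the most libraries, since 4 windows had a peak in 12 or more. Each is 250 bases before to 50 bases after a RefSeq start (GRCh38.p14, the assembly called hg38), written 5′ to 3′ on the strand of the gene in lower case with every CG dinucleotide in capitals. The window of STARD13, a START-domain protein (chr13:33285706-33286005, minus strand), overlapped a peak in 15 of the 16 libraries without NSD2. That of PRKAG2, the gamma subunit of AMP-activated kinase (chr7:151814810-151815109, minus strand), did so in 12 and that of RUSC2, an adaptor protein (chr9:35538384-35538683, plus strand), in 11. The windows of CPM, the carboxypeptidase M gene (chr12:68933122-68933421, minus strand), CLDN10, a tight-junction claudin (chr13:95552470-95552769, plus strand), and an internal start of DLG2, a synaptic scaffold (chr11:84923372-84923671, minus strand), did so in 7 libraries each. None of the 6 overlapped a peak in a library with NSD2, which the rule fixes. The number of CG dinucleotides was 12 in STARD13, 4 in PRKAG2, 1 in RUSC2, 46 in CPM, 36 in CLDN10 and 3 in DLG2.
STARD13: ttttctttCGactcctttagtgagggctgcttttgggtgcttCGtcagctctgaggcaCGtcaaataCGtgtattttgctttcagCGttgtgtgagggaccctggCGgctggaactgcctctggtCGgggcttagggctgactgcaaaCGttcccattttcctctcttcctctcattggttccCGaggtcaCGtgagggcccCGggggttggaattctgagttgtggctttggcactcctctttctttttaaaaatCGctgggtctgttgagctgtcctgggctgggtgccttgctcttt
PRKAG2: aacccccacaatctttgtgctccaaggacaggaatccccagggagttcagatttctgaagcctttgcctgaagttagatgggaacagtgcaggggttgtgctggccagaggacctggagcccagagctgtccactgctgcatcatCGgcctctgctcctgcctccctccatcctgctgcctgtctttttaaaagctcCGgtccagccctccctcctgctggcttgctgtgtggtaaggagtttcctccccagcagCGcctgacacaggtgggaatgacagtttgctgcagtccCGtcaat
RUSC2: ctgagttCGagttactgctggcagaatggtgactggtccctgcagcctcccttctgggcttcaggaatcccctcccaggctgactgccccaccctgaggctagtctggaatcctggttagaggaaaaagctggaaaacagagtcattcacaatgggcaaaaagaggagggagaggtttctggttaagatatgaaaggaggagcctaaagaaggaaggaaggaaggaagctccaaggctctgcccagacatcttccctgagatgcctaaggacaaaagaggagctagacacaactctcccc
CPM: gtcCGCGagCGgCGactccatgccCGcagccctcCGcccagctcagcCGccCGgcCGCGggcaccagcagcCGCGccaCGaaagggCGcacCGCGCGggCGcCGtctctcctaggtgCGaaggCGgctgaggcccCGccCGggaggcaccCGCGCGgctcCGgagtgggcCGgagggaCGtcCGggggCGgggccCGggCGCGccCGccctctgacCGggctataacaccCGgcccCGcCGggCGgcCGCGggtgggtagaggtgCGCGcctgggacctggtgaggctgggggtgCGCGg
CLDN10: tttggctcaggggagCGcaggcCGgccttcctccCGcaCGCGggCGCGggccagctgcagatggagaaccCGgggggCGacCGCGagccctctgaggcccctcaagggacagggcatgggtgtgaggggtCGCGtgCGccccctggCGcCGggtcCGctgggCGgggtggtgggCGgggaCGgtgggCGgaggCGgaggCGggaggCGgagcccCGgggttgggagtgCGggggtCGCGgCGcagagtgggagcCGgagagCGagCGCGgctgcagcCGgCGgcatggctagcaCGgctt
DLG2: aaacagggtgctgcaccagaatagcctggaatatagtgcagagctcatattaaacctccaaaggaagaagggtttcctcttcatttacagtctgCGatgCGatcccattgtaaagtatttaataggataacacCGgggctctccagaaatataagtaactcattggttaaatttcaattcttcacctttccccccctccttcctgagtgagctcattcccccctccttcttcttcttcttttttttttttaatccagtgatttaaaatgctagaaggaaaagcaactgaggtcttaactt

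The start sites in the member bins were mostly poor in CG. The members held 239 promoter windows of 196 genes, or 12.5 per 100 bins, against 13.9 per 100 in the other bins inside genes. Their median was 3 CG. At least 20 CG were found in 12 of them (5.02%), against 22.9% of the 3709 windows in the other bins inside genes, where the median was 6. The other bins include those with a peak in cells with NSD2, which the rule keeps out of the members. The contrast in CG may therefore follow from the rule, and it was not tested. CG was counted once per position, and it reads the same on both strands. Of the 239 windows, 141 overlapped a peak in any library without NSD2, 4 did so in 12 or more, and 98 in none. The 12 windows with at least 20 CG overlapped a peak in 9 libraries at most, so peaks over these windows alone would not have made their bins members. The members also held 13 microRNA genes, of which 5 hairpins touched a peak, in no more than 2 libraries.

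The promoters of the member genes themselves were often covered in cells with NSD2 as well. A RefSeq start was matched for 743 of the 919 member genes. Their own promoter window lay outside every peak with NSD2 in 262 genes (35.3%), against 19.8% of the 3872 matched genes that had bins inside them and no member. It overlapped a peak in 12 or more libraries without NSD2 in 57.5% of member genes, against 68.5% of the other genes. The median window held 23 CG in member genes and 26 in the others. The promoter itself followed the rule in only 6 member genes (0.808%). These were KCNAB1 (a potassium channel subunit, 13 of 16 libraries), NLRC4 (an inflammasome receptor, 12), NPSR1 (a neuropeptide receptor, 14), PGPEP1L (a peptidase-like gene, 12), RANBP3L (a nuclear export factor, 13) and TNFRSF19 (a TNF receptor family member, 12). In the other genes without a member, 8 of 3872 promoters followed it (0.207%). Member genes were longer, with a median of 174 kb against 88.1 kb over all genes with bins inside them. The rule also picks genes that hold a bin empty in cells with NSD2. These differences in promoter shares may follow from both, and they were not tested. These 6 genes were picked out after their values were seen.

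The libraries differed in how much of the genome was called, and this bears on every count. Called length, the summed length of merged peaks on chromosomes 1 to 22 and X, was 78.3 to 168 Mb without NSD2 and 36.1 to 99.8 Mb with it. The reads behind the lists were not used here, so depth is unknown and no counting interval can be given. A bin with no peak in a short list may still hold H3K27me3. Each list is pooled over many cells, so a mark in some of the cells cannot be told apart from a weaker mark in all. RNA was not measured, so the cell type could not be checked by expression, and the 6 plasma cell markers did not share 1 pattern of coverage. TNFRSF17 (BCMA) had no covered base without NSD2 and at most 2.66% with it. SDC1 (syndecan 1) was covered over 1.96% to 12.0% of the gene without NSD2 and 1.68% to 11.6% with it, and CD38 over 2.34% to 8.95% and 1.33% to 7.35%. IRF4 was covered over 1.13% to 7.22% without NSD2 and at most 7.39% with it, XBP1 over at most 19.1% and 35.4%, and PRDM1 over at most 1.28% and 1.48%.

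Member bins with a peak numbered 1415 to 1890 per library without NSD2 and 0 with it, the second by the rule. Between 78.3 and 99.8 Mb the called lengths of both kinds of library overlapped. There, 4 libraries without NSD2 averaged 88.0 Mb and 3 with it 88.2 Mb. The 4 were dTAG clone 8 at day 7 (replicate 1, 1457 member bins), the same clone at day 14 (replicate 2, 1415), dTAG clone 11 at day 21 (replicate 2, 1629) and KO clone 12 (replicate 2, 1485). The 3 were dTAG parental at day 14 and at day 21 (replicate 1 of each) and KO parental (replicate 1). A peak lay in 28.2% to 34.9% of bins inside genes in the 4 and in 18.5% to 25.7% in the 3. At like length the 4 lists thus touched more bins. Among all bins inside genes, 1031 had a peak in each of the 4 and in none of the 3, and 75 had the opposite pattern. Of the 1919 members, 762 had a peak in all 4, and by the rule none had a peak in the 3. The part of called length in the choice of the members was not tested.

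**Figure D1:**
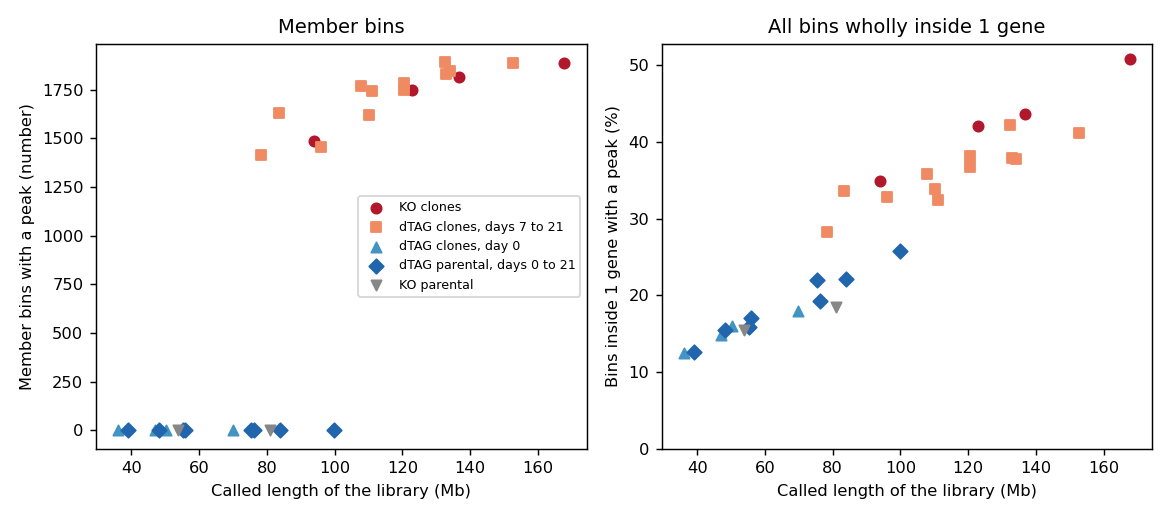
Left, member bins with a peak (of 1919) against called length in Mb for each of the 30 libraries. Right, the percent of all 28688 bins inside genes with a peak. Libraries without NSD2 (circles and squares) hold 1415 to 1890 member bins at 78.3 to 168 Mb, and libraries with NSD2 (triangles and diamonds) hold 0 by the rule at 36.1 to 99.8 Mb.

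The reverse pattern was almost absent. A bin with no peak in the 16 libraries without NSD2 and a peak in 11 or more of the 14 with it was found once among the 28688 (0.00349%), in ANXA8, an annexin gene (chr10:47600001-47625000, 13 of 14 libraries). Reads of ANXA8 may be split with its close paralogs nearby. The lists without NSD2 were longer, with a mean of 119 Mb against 62.2 Mb, and a bin is less often empty in a longer list. The 2 patterns were therefore not equally easy to meet. With lists shortened to an equal 36.1 Mb, 119 bins inside genes had the rule's pattern and 4 the reverse. The part of called length in this contrast was not tested. Among bins without a coding gene the reverse pattern was found 4 times (0.00879%). The rule's own pattern was met by 3389 of 45532 bins without a coding gene (7.44%) and by 865 of 17236 bins partly inside genes (5.02%), so it was not limited to gene interiors. Of the 28688 bins, 9442 had no peak in any library (32.9%), 8138 had none with NSD2 and 1 to 11 libraries without it (28.4%), and 6514 had a peak in at least 1 library with NSD2 and in 12 or more without it (22.7%).

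Coverage within a member bin was thin. The mean covered percent over the 16 libraries had a median of 5.13 across members (lowest 1.01, highest 20.1), against 0.318 for all bins inside genes. A peak was present in all 16 libraries in 566 members, in 15 in 438, in 14 in 316, in 13 in 320 and in 12 in 279. Peaks in members were narrow and close to the caller's limit. Their median width per library was 411 to 609 bp, against 522 to 662 bp for the other peaks of the same libraries. Their median -log10 q, the authors' value for single peaks, was 1.55 to 2.03, against 1.75 to 2.32, and the lowest value in the lists was 1.00. The median fold enrichment was 2.74 to 3.12 in members and 2.62 to 2.94 elsewhere.

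The peaks did not sit on the same bases in every library. The base shared by the most libraries was shared by a median of 11 of 16. In 758 members (39.5%) some base was covered in 12 or more libraries, and in 74 in all 16. In bins covered in 12 or more libraries without NSD2 and in at least 1 with it the median was 15, and 81.5% had a base covered in 12 or more. These measures come from the lists that chose the members and are a description.

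The 10 members with the highest mean coverage lay in 10 genes, and all 10 had a peak in 16 of 16 libraries. The highest lay in RAB3C, a small GTPase of synaptic vesicles (chr5:58750001-58775000). It was covered over 25.6% and 31.7% in KO clone 3 and over 21.8% and 6.58% in KO clone 12. In the dTAG clones it was covered over 7.28%, 20.2%, 22.3% and 24.7% at day 7, over 18.9%, 16.7%, 22.3% and 20.4% at day 14 and over 27.0%, 16.7%, 21.2% and 18.8% at day 21. The lowest values were 1 library of KO clone 12 and 1 of dTAG clone 8 at day 7, and the 4 groups overlapped.

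MCTP1, a calcium-binding membrane protein, had the most even of these 10 bins (chr5:95250001-95275000). Its coverage was 14.9%, 18.4%, 14.9% and 17.2% in the KO libraries. In the dTAG clones it was 11.9%, 16.9%, 10.1% and 13.2% at day 7. Day 14 gave 18.4%, 12.3%, 19.1% and 14.9%, and day 21 gave 15.1%, 14.3%, 15.1% and 11.9%, so all groups overlapped. NIM1K, a protein kinase gene (chr5:43225001-43250000), had the widest spread relative to its mean. It ranged from 1.71% to 25.0% with a mean of 14.9% ± 6.51 (SD, n = 16). The other 7 bins had means of 14.7% to 17.1%. They lay in FSTL4 (a follistatin-like protein), ASPRV1 (a skin protease), MPP4 (a retinal scaffold), SV2C (a synaptic vesicle protein), COLQ (the collagen tail of acetylcholinesterase), FGD4 (a CDC42 exchange factor) and ASAP2 (an ARF GTPase-activating protein).

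Member bins were spread over many genes, with a few holding long series of them. A single member was found in 502 genes, 2 or more in 417 and 5 or more in 78. DLG2 (chr11:83455012-85628373), a scaffold of the postsynaptic density, had the most with 21 of its 86 bins. CLSTN2, a calsyntenin of the synaptic membrane (chr3:139935185-140577397), had 18 of 25. ADGRV1, an adhesion receptor of hair cells (chr5:90558797-91164437), had 16 of 23, and CAST, the calpain inhibitor calpastatin (chr5:95961429-96774683), had 16 of 30. The next were PDE4D, a cyclic AMP phosphodiesterase (15 of 61), CALN1, a neuronal calcium-binding protein (13 of 28), AUTS2, a gene of brain development (13 of 47), GRM8, a metabotropic glutamate receptor (11 of 32), CELF2, an RNA-binding splicing factor (11 of 34) and TENM4, a teneurin of cell adhesion (10 of 30).

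In CLSTN2 the members ran through most of the gene. Of its other 7 bins, 4 had a peak in some library with NSD2 and 3 had a peak in fewer than 12 libraries without it. In DLG2, which is far longer, 39 of the other bins had a peak in fewer than 12 libraries without NSD2 and in none with it, 15 had a peak in some library with NSD2 and 11 had no peak in any library. Over all member genes the 6765 other bins comprised 3053 without a peak with NSD2 and with one in 1 to 11 libraries without it (45.1%), 2097 covered in both kinds of library (31.0%), 1075 with no peak at all (15.9%) and 540 with a peak in some library with NSD2 and in fewer than 12 without it (7.98%).

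**Figure D2:**
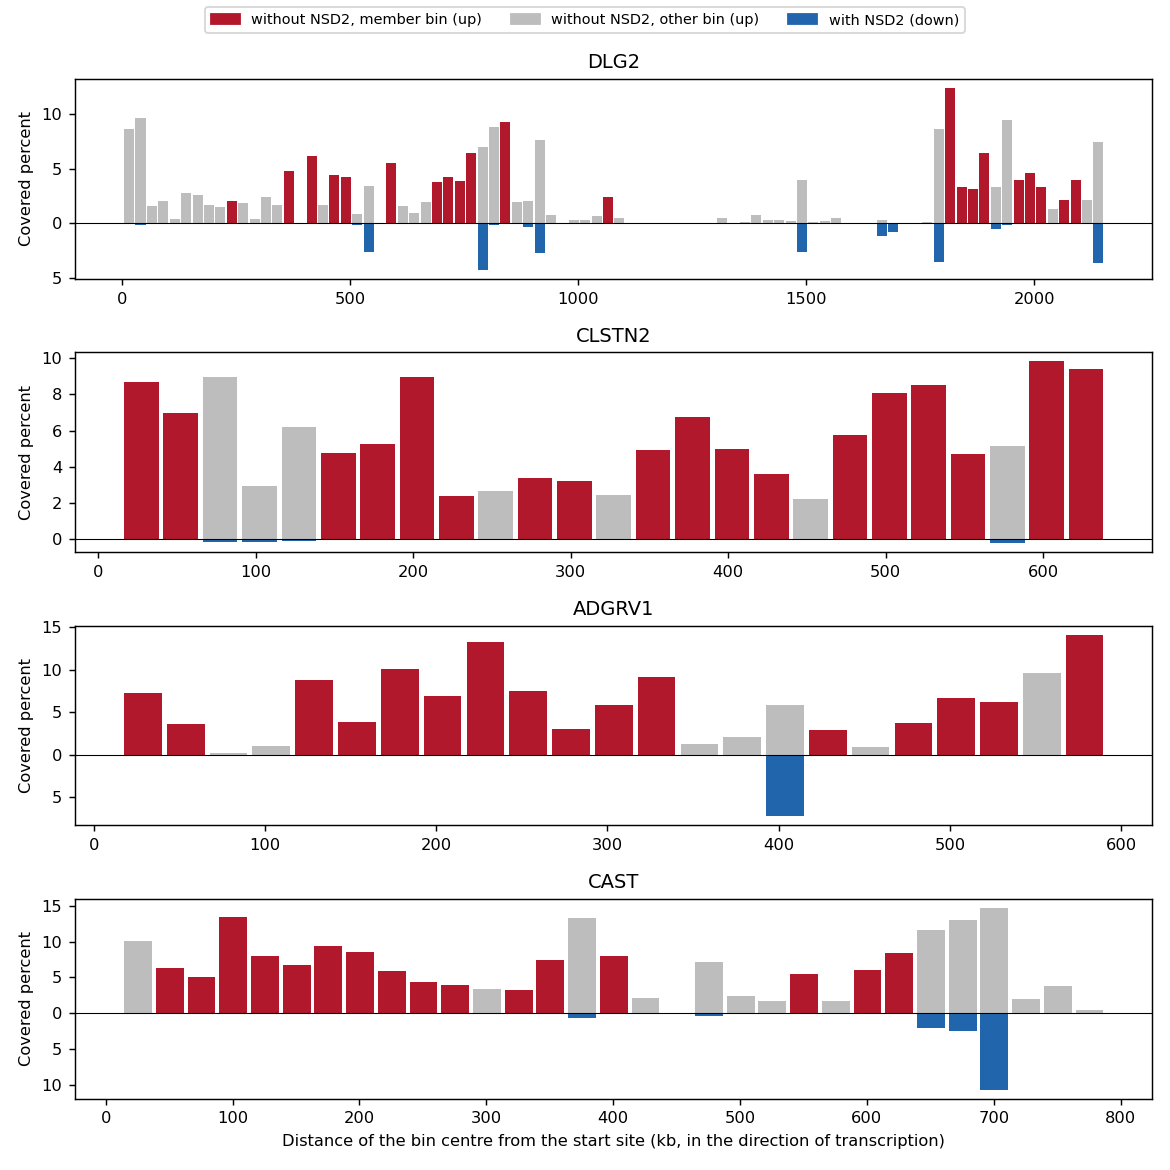
Mean covered percent of each bin wholly inside DLG2, CLSTN2, ADGRV1 and CAST against the distance of its centre from the start site in kb. Bars above the line are the 16 libraries without NSD2, red for member bins and grey for the others, and blue bars below it are the 14 libraries with NSD2. Members number 21, 18, 16 and 16, and bins with a blue bar cannot be members.

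Adjacent members formed 1381 runs, of which 1036 were a single bin, 232 had 2 bins and 113 had 3 or more. The longest was 10 bins in CAST (chr5:96000001-96250000), covered over 7.18% on average. ADGRV1 followed with 9 bins, CTNND2, a delta-catenin of neurons, with 8, and AKAP19, a protein kinase A anchor, and KCNAB1 with 7 each. Of the bins next to a member, 32.0% had the same pattern, against 6.50% of those next to any bin inside a gene. Members also lay nearer to peaks of cells with NSD2. The nearest such peak was a median of 14.6 kb from the edge of a member, 53.9 kb from a bin with no peak in any library and 40.3 kb over all bins inside genes that had none with NSD2. These shares follow in part from bins that were selected on coverage and carry no test.

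The share of bins that were members differed between chromosomes and little along genes. It was highest on chromosomes 7 (10.6%), 5 (9.84%) and 3 (8.61%) and lowest on 13 (2.71%), 22 (2.71%) and 17 (3.16%). On chromosome 22, 69.0% of bins inside genes had a peak in some library with NSD2 and could not be members, against 35.8% on chromosome 7. On chromosome 13 this was 17.6%, and only 12.5% of its bins had a peak in 12 or more libraries without NSD2. Copy number of the chromosomes was not measured here. By gene length the share was 5.38% under 100 kb, 7.45% at 100 to 250 kb, 7.96% at 250 to 500 kb and 5.61% from 500 kb. It was 7.13% within 50 kb of the start and 6.33% from 400 kb on.

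The gene lists, chosen with earlier results of these data known, were counted without a test. In second messenger and small GTPase signalling 18 of 31 genes had a member, and 65 of 554 bins were members (11.7%, against 6.69% overall). PRKCE, protein kinase C epsilon, had 9 of its 20 bins, PDE11A and PDE1A, cyclic nucleotide phosphodiesterases, 7 of 19 and 7 of 22, and RGS6, a regulator of G protein signalling, 6 of 30. The PRKCE members were covered over 8.09% ± 4.04 in KO clones, 7.31% ± 1.55 at day 7, 6.48% ± 1.95 at day 14 and 6.76% ± 1.84 at day 21 of the dTAG clones (SD, n = 4 each), and these ranges overlapped.

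Ion channels and neurotransmitter receptors were near the average, with 43 of 646 bins (6.66%) in 10 of 39 genes. GRM8 had 11, GRIN2A, a subunit of the NMDA receptor, 7 of 16, CACNA1D, a calcium channel, 6 of 12, and CACNA2D1, an accessory subunit of such channels, 6 of 19. In the list of the extracellular matrix and its proteases 13 of 315 bins were members (4.13%), in 9 of 25 genes. TNC, the matrix protein tenascin C (chr9:115019575-115118157), had all 3 of its bins, covered over 9.66% ± 2.29 in KO clones, 3.70% ± 1.09 at day 7, 4.61% ± 2.73 at day 14 and 6.23% ± 2.61 at day 21 (SD, n = 4 each). COL5A2, a fibrillar collagen, had 2 of 15, covered over 1.12% ± 0.533 in KO clones and 6.26% ± 2.86 in the dTAG clones at day 21 (SD, n = 4 each).

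Receptor phosphatases and kinases had 15 of 391 bins (3.84%) in 7 of 18 genes. MET, the receptor of hepatocyte growth factor (chr7:116672196-116798377), had 4 of 4, PTPRT and PTPRJ, receptor phosphatases, had 4 of 45 and 3 of 6, and EGFR, the epidermal growth factor receptor, had 1 of 7. The MET members were covered over 4.84% to 12.4% in KO libraries, 3.22% to 6.22% in the dTAG clones at day 7 and 2.48% to 7.20% at day 21, and these ranges overlapped. Genes of synaptic adhesion and axon guidance had 39 of 1627 bins (2.40%) in 12 of 45 genes, among them TENM4 with 10, NTM and OPCML, membrane-anchored adhesion proteins, with 5 each, and CNTNAP2, a neurexin-family protein, with 4 of 91. Genes of the B lineage and of myeloma had 9 of 212 bins (4.25%) in 3 of 19 genes. MAF, a transcription factor that some myeloma translocations activate (chr16:79202622-79600737 as annotated), had 7 of 15, and AFF3 and BACH2, nuclear factors of B cells, 1 each. The 7 MAF members lay between positions 79375001 and 79575000 of that 398 kb span and were not matched to single transcripts. Whether the MAF locus is rearranged in these cells was not examined. The MAF members were covered over 5.81% ± 2.80 in KO clones, 2.89% ± 0.749 at day 7, 4.09% ± 1.49 at day 14 and 6.03% ± 2.51 at day 21 (SD, n = 4 each).

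**Figure D3:**
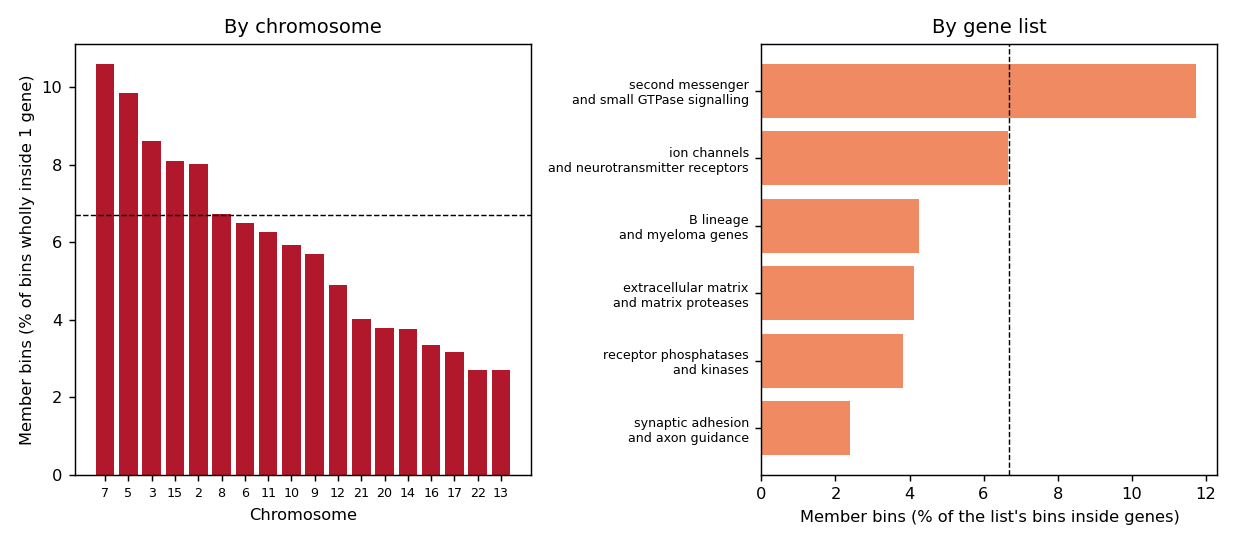
Percent of bins wholly inside 1 gene that were members, by chromosome (left) and by gene list (right). The dashed line is the share over all such bins, 6.69%. Chromosome 7 reached 10.6% and the second messenger list 11.7%, and the synaptic adhesion list 2.40%.

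Members were counted by the number of KO libraries that covered them, which the rule fixes in part. A peak was present in all 4 KO libraries in 1331 members, in 3 in 453, in 2 in 123, in 1 in 8 and in none in 4. Since 12 of the 16 libraries were dTAG libraries, a bin could be a member with no KO peak but not with fewer than 8 dTAG libraries. The 4 without a KO peak lay in LRP2 (an endocytic receptor of epithelia), RASEF (a RAB-family GTPase), BBS9 (a cilium protein) and DDX19B (an RNA helicase), and were picked out for this. By the rule all 12 dTAG libraries had to cover each of them.

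Coverage of the members was thinner at day 7 than at day 21 on average, with overlapping ranges. A peak was present in all 4 libraries in 1157 members at day 7 (60.3%), in 1256 at day 14 and in 1444 at day 21 (75.2%), and in none of the day 7 libraries in 2. These libraries are among the 16 that chose the members, so high counts at each day follow in large part from the rule. The mean covered percent of the members was 4.55 ± 1.16 at day 7, 5.79 ± 1.81 at day 14 and 6.17 ± 1.74 at day 21, and 6.39 ± 2.40 in the KO clones (SD, n = 4 each). Over all 28688 bins inside genes it was 2.81 ± 0.346, 2.82 ± 0.729 and 3.01 ± 0.802 at these days and 3.48 ± 0.899 in the KO clones. Called length averaged 130 Mb in the KO clones (SD 30.7), and in the dTAG clones 112 Mb for day 7 (SD 11.6), 113 Mb for day 14 (SD 25.9) and 120 Mb for day 21 (SD 29.9). The members' share of the called length was 1.48% to 2.26% at day 7, 2.07% to 2.79% at day 14, 2.34% to 2.54% at day 21 and 1.88% to 2.62% in the KO clones. The ranges of day 7 and day 21 did not overlap, and those of day 14 and of the KO clones overlapped both.

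In some of the genes with most members all day 7 libraries lay below all KO and all day 21 libraries, while day 14 overlapped day 7. The 16 ADGRV1 members were covered on average over 10.5%, 9.99%, 7.55% and 6.50% in the KO libraries. They were covered over 2.21%, 4.85%, 4.85% and 5.55% at day 7, over 4.81% to 7.49% at day 14 and over 11.1%, 7.17%, 9.12% and 7.35% at day 21. All KO and all day 21 libraries were above all day 7 libraries, and 1 day 14 library lay within the range of day 7. In AUTS2 the KO libraries had 4.77% to 11.7%, those of day 7 2.33% to 4.55%, those of day 14 1.49% to 7.85% and those of day 21 4.78% to 9.45%, and the lowest of all was dTAG clone 8 at day 14 (replicate 2). In CELF2 the KO libraries had 6.95% to 10.3%, those of day 7 2.07% to 3.30%, those of day 14 2.50% to 9.92% and those of day 21 4.03% to 9.95%. In DLG2 the KO libraries had 9.32%, 9.88%, 5.85% and 2.59%, those of day 7 1.12%, 2.67%, 2.23% and 4.35%, and those of day 21 6.03%, 4.64%, 6.03% and 2.24%, so the groups overlapped. TENM4 members were covered over 5.15% to 12.5% in KO libraries and over 1.36% to 4.21% at day 21, without overlap.

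**Figure D4:**
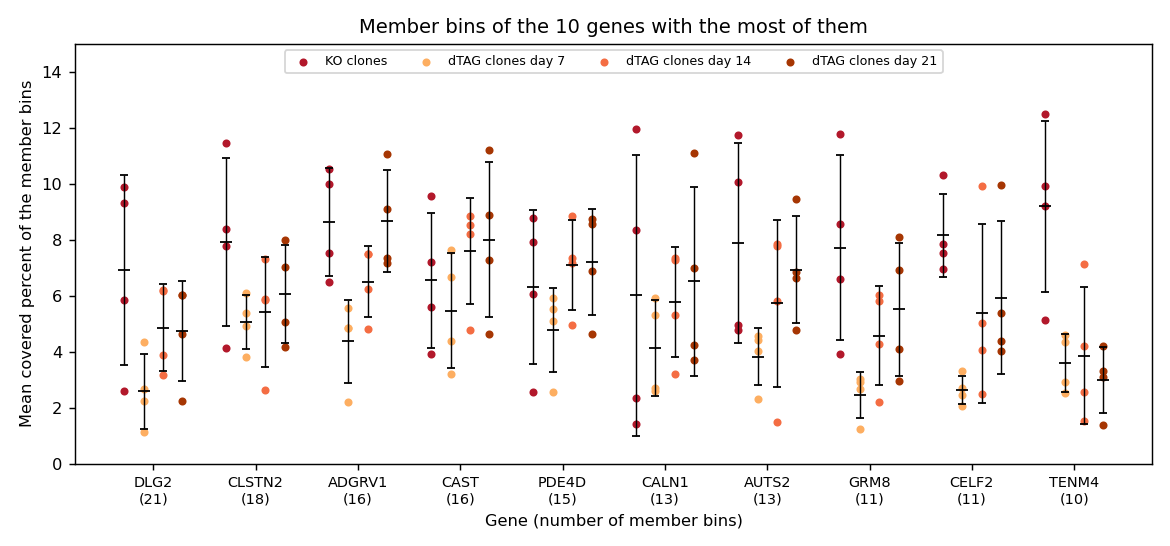
Mean covered percent of the member bins of the 10 genes with most of them, in KO clones and in dTAG clones at days 7, 14 and 21. Points are libraries (4 per group), and bars are the mean and SD. Day 7 has the lowest mean in each gene shown except TENM4, where day 21 has it. In ADGRV1, AUTS2 and CELF2 some day 14 points lie among or below those of day 7. The 2 libraries of KO clone 12 lie lowest in CALN1, and the KO libraries lie above day 21 in TENM4.

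Differences among the libraries without NSD2 were tested with limma over 55029 bins of the genome, all 1919 members among them, with Benjamini-Hochberg adjustment over all bins. Each p measures how far the 2 replicates of a clone and day lie apart, and not how far clones do. For day 21 against day 7 limma called 0 members higher and 0 lower, with 0% and 0.00363% of all tested bins called. At an unadjusted p under 0.05 there were 256 members higher and 24 lower. All tested bins were not counted at this limit, so these 2 counts have no background and say nothing particular to members. The difference was positive in 1418 members and negative in 501, with a median of 1.55 percentage points, against 0.489 over all bins tested. Without dTAG clone 11 day 21 replicate 1 the medians were 0.816 and -0.119, and without its replicate 2 they were 2.21 and 1.11. With coverage scaled by called length they were 0.942 and 0.052. With all 15 groups in the fit, and 15 residual degrees of freedom in place of 8, limma called 112 members higher and 7 lower, and over all bins 913 and 189. The libraries with NSD2 in that fit are 0 at every member by the rule. Their lack of spread lowers the error, so its member counts are raised by the choice of members.

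KO clones differed from the dTAG clones at day 21 in single members and in both directions. limma called 53 members higher and 18 lower, of 1919 (3.55% and 0.338% of all tested bins were called higher and lower). The median difference was 0.07 percentage points in members and 0.35 over all bins. With coverage scaled by called length it was -0.37 in members and -0.22 over all bins. Then 29 members were higher and 23 lower, against 1319 and 274 of all 51913 bins tested. Without dTAG clone 11 day 21 replicate 1 the medians were 0.78 in members and 1.14 over all bins. Without replicate 2 of that clone and day they were -0.47 and -0.26. Members were chosen with more dTAG than KO libraries, so this contrast is not independent of the rule. The largest positive difference lay in TENM4 (chr11:78900001-78925000), covered over 23.7%, 18.5%, 20.5% and 7.22% in KO libraries and over 1.18%, 1.92%, 1.02% and 2.28% at day 21. The difference was 15.9 ± 2.44 percentage points (SE, limma adjusted p = 0.00336), and the groups did not overlap. DGKB, a diacylglycerol kinase (chr7:14775001-14800000), was covered over 14.9%, 14.0%, 19.0% and 12.6% in KO libraries and over 5.65%, 1.08%, 1.34% and 0% at day 21, a difference of 13.1 ± 1.79 (SE, limma adjusted p = 0.00158). ARSB, a lysosomal sulfatase (chr5:78900001-78925000), was covered over 14.3%, 17.0%, 15.4% and 21.5% in KO libraries and over 7.85%, 7.91%, 7.23% and 2.51% at day 21 (limma adjusted p = 0.0108). With peaks of -log10 q of at least 2 the ARSB difference turned to -0.774 and was not called, and that of TENM4 was 9.16 (limma adjusted p = 0.265), while DGKB kept its call (12.0, limma adjusted p = 0.0182). With peaks joined over 3 kb TENM4 missed the threshold (limma adjusted p = 0.0563), and DGKB did so with lists shortened to equal length (7.52 percentage points, limma adjusted p = 0.116). The next largest lay in MED12L, a mediator subunit, in a bin partly shared with another gene (11.8 percentage points), and CCNJL, a cyclin-like gene (10.2), with overlapping groups.

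The largest negative difference lay in CFAP70, a cilium protein (chr10:73275001-73300000). The bin was covered over 8.43%, 5.78%, 0% and 1.47% in KO libraries and over 24.6%, 18.6%, 16.2% and 8.38% at day 21. It fell by 13.0 percentage points (SE 2.58, limma adjusted p = 0.0135), with overlapping groups, and lost its call without KO clone 12 replicate 1 (adjusted p = 0.055) or dTAG clone 11 day 21 replicate 1 (0.0561). A bin of the readthrough gene RNF103-CHMP3 (chr2:86575001-86600000) was covered over 2.71%, 6.59%, 5.04% and 5.46% in KO libraries and over 15.2%, 10.9%, 16.7% and 13.1% at day 21, without overlap. It fell by 9.01 percentage points (SE 1.78, limma adjusted p = 0.013) and lost its call without KO clone 3 replicate 1 (adjusted p = 0.0569) or dTAG clone 11 day 21 replicate 1 (0.0506). At a -log10 q of at least 2 the RNF103-CHMP3 difference was -1.09 (limma adjusted p = 0.908) and that of CFAP70 -8.35 (limma adjusted p = 0.158). SHB, an adaptor of tyrosine kinase signalling (-11.0 percentage points), AKAP19 (-9.33) and PDE11A (-8.69) followed.

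These counts depended on single libraries, and so did those over all bins. With 1 library left out the latter were 845 to 2331 higher and 48 to 232 lower, against 1954 and 186. The 53 members higher in KO clones came to 31 and 32 without dTAG clone 8 day 7 replicate 1 and 2, 22 and 15 when either day 21 library of clone 8 (replicate 1, then 2) was left out, 20 and 11 when either of clone 11 was, 29 without KO clone 3 replicate 1 and 21 without KO clone 12 replicate 1. The 18 lower ones came to 10 and 11 without dTAG clone 8 day 7 replicate 1 and 2, 6 and 3 when the first day 21 library of clone 8 or of clone 11 was left out, 5 and 5 without KO clone 3 replicate 1 and 2, and 3 and 5 without KO clone 12 replicate 1 and 2. The TENM4, DGKB and ARSB calls stood when any single library was left out, but not in each of the settings given above.

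Between the KO clones, coverage was higher in clone 3. limma called 41 members higher in KO clone 3 than in KO clone 12 and 0 lower (1.83% and 0.06% of all tested bins). At an unadjusted p under 0.05 there were 436 and 4 members, without a count over all bins to set beside them. The median difference was 3.43 percentage points in members and 2.45 over all bins. The members were covered over 8.30% ± 1.18 in clone 3 and 4.48% ± 1.13 in clone 12 (SD, n = 2 each), and the called lengths were 168 and 137 Mb in clone 3 and 123 and 94.0 Mb in clone 12. After scaling by called length 1 member was called higher and 0 lower, against 98 and 39 of all 51913 bins tested. The median difference was then 1.16 in members and 0.04 over all bins. With lists shortened to equal length 265 of the 1919 members could be tested. Of these, 3 were called higher and 0 lower, against 16 and 34 of all 27545 bins tested. Of the 5 bins with the largest differences, 2 lay in CALN1. The first (chr7:71950001-71975000) was covered over 20.1% and 17.0% in clone 3 and over 3.34% and 0% in clone 12, and the second (chr7:72225001-72250000) over 15.4% and 15.1% in clone 3 and over 0.932% and 0% in clone 12 (limma adjusted p = 0.0346 and 0.0424).

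KIF13B, a kinesin motor (chr8:29200001-29225000), was covered over 17.8% and 14.1% in clone 3 and was outside every peak in both libraries of clone 12 (limma adjusted p = 0.00366). The other bins were in FMNL2, a formin of the actin cytoskeleton (15.6 percentage points, limma adjusted p = 0.0197), and ARHGEF3, a guanine nucleotide exchange factor (15.9, limma adjusted p = 0.037). Of these 5 calls that of KIF13B stood without any single library and after scaling, but at a -log10 q of at least 2 its difference was 4.73 (limma adjusted p = 0.353). There the FMNL2 bin alone of the 5 kept its call (15.0, limma adjusted p = 0.00498). The count of 41 came to 18 and 20 without dTAG clone 8 day 7 replicate 1 and 2, 26 and 27 when either day 7 library of clone 11 was left out, 24 without KO clone 3 replicate 1, and 18 and 1 without KO clone 12 replicate 1 and 2. Over all bins the count higher in KO clone 3 was 219 to 1452 with 1 library left out, against 1006. Between dTAG clones 8 and 11 over days 7 to 21 limma called 0 members in either direction (0% and 0% of all bins). At an unadjusted p under 0.05 there were 13 members higher and 111 lower in clone 8, without a count over all bins. The median difference was -0.72 percentage points in members and -0.23 over all bins. At a -log10 q of at least 2 the member median was 0.01, with 797 positive and 787 negative. It was -1.21 without dTAG clone 8 day 14 replicate 1 and -0.27 without dTAG clone 11 day 21 replicate 1, so the sign of the members' median held without single libraries but not at the stricter q.

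**Figure D5:**
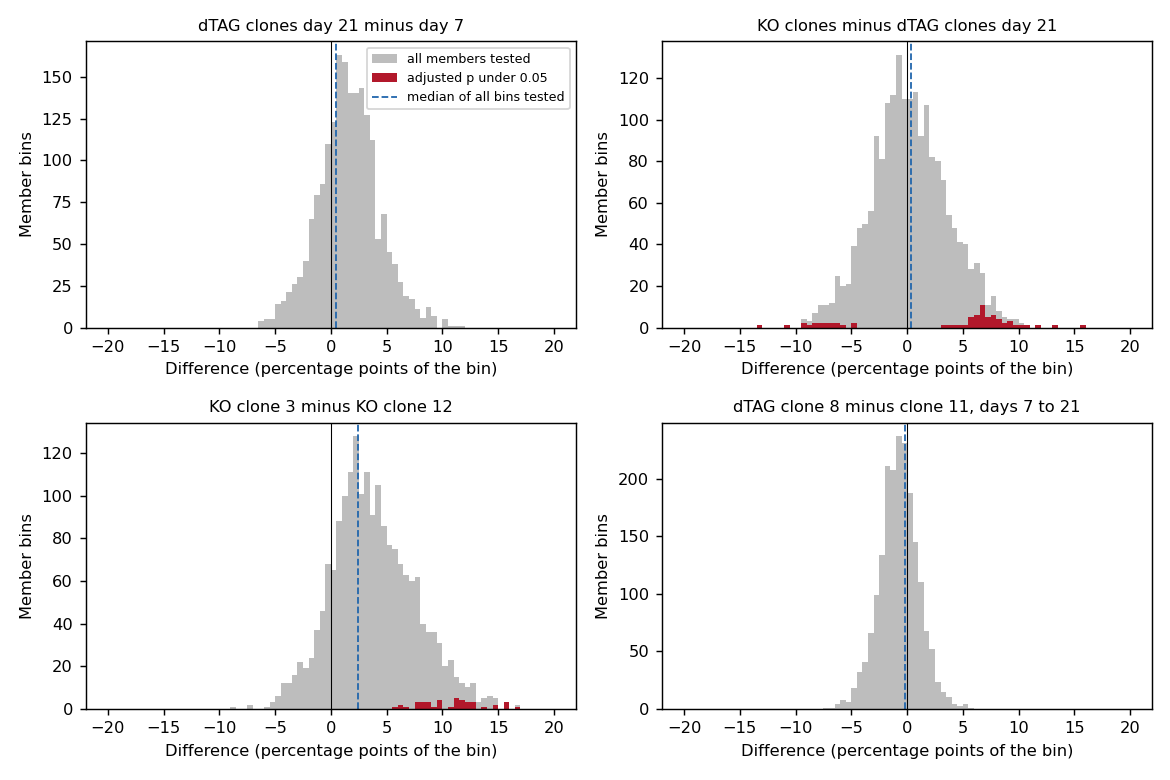
Differences in covered percent (percentage points of the bin) of the 1919 member bins in 4 comparisons among libraries without NSD2. Grey bars are all members, red bars those called by limma, and the dashed line is the median of all 55029 bins tested. The median of the members is above that line for day 21 minus day 7 (1.55 against 0.489) and for KO clone 3 minus KO clone 12 (3.43 against 2.45), and calls are 0 in the first and 41 in the second. The same libraries chose the members, so an offset from the line can follow from that choice and was not tested.

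The rule's thresholds cut through a continuum. Just inside were 279 bins with a peak in 12 of 16 libraries, the most covered of which lay in COL14A1, a collagen (6.85%), AGBL1, a carboxypeptidase-like gene (6.23%) and RGS6 (6.09%). Just outside were 315 bins with a peak in 11 libraries, led by TRPM6, a magnesium channel (5.97%), RASGRP1, a RAS exchange factor (5.06%) and SLC8A1, the sodium-calcium exchanger (4.94%). A further 683 bins were covered in 12 or more libraries without NSD2 and missed the rule through a peak in 1 library with it, and in 211 of them this was dTAG parental day 21 replicate 1, which had the longest list of its kind. The most covered of the 683 lay in REEP1, a membrane-shaping protein of axons (19.0% in cells without NSD2, with 492 bases in the 1 library with it), CASR, the calcium-sensing receptor (16.6%, 377 bases) and PLEKHH2, a cytoskeletal protein of podocytes (15.8%, 52 bases).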

How the data were processed

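Per the submitters' processing notes, the tools the authors used, listed without their roles, include MACS3 3.0.2 (a peak caller), Bowtie2 (an aligner), fastp 0.24.0, deepTools 3.5.1, ChIPseeker 1.42.1, DESeq2, Picard and SAMtools, and the build was hg38. The authors deposited 1 broadPeak list per library. The calling options, and whether IgG served as control, are not stated in the sources at hand. The deposited lists give each peak a score, a fold enrichment (a ratio), a -log10 p and a -log10 q, and the last of these was used to filter peaks and all but the score and p to describe them. A further 10 libraries with other antibodies were not used.

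Peaks of a library were merged, and each bin of 25000 bases was scored by the percent covered. Called length, which tends to grow with depth, was recorded beside every count, because depth is unknown. Gene spans of 19974 coding genes and start sites came from RefSeq on GRCh38.p14. No genome was used, so exons, introns and peak sequences are not given. The members and gene lists were chosen with earlier results of these data known. Bins with 1% to 99% mean coverage were tested in limma 3.58.1 (R 4.3.3, the data.table package, version 1.17.8) on the 16 libraries without NSD2, with 1 mean per group, 8 residual degrees of freedom and eBayes with a trend, at a Benjamini-Hochberg adjusted p under 0.05. The fit was tested on simulated data. The text names the 10 most covered bins, the 10 genes with most members, up to 5 called bins per direction and contrast, up to 4 genes per list and 3 bins at each threshold. Alternatives are given in the closing section. Python 3.11.15, numpy 2.4.6, pandas 2.3.3 and matplotlib 3.10.9 were used.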

Additional observations from a re-analysis of the deposited data

Results flagged for a closer look

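Among 88 groups of 4 libraries examined for a library far from the rest, 4 were set apart by Dixon's criterion, which chance passes in about 1 of 20 groups. The SV2C bin was covered over 6.34% in KO clone 12 replicate 1 and over 14.8% to 15.8% in the other 3 KO libraries. At day 14 it was covered over 21.1% in dTAG clone 8 replicate 2 and over 11.8% to 12.8% in the other 3. The ASAP2 bin at day 14 was covered over 20.7% in dTAG clone 11 replicate 1 and over 15.7% to 16.5% in the others. The CAST members at day 14 were covered over 4.78% in dTAG clone 8 replicate 2, the library with the shortest list without NSD2 (78.3 Mb), and over 8.22% to 8.85% in the others. The TENM4 members moved in opposite directions in the dTAG clones between day 7 and day 21, by 0.935 percentage points in clone 8 and by -2.14 in clone 11, with both day 21 libraries above both day 7 libraries in clone 8 and below them in clone 11. The difference between the clones was not tested.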

How the results depend on the processing

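The number of member bins and of genes with a member bin depended most on the strength of the peaks. Against 1919 bins in 919 genes, a peak in all 16 libraries left 566 in 363, a -log10 q of at least 2 gave 859 in 516 (539 of the bins among the 1919), a -log10 q of at least 5 gave 12 in 11 (2 among them), and lists shortened to the equal length of 36.1 Mb gave 119 in 109 (35 among them). The opposite pattern then held 2, 1 and 4 bins in the last 3 settings. Bins of 10 kb gave 3930 in 1397 genes and bins of 50 kb 860 in 524. With at least 500 covered bases needed there were 1887 bins, of which 1162 were among the 1919. Leaving out each library in turn gave 1654 to 2130 bins in 819 to 992 genes. Limits of 10 or 14 libraries and a shifted grid stayed within 1.5 times. Joining peaks over 3 kb left both counts at 1919 and 919, and it could not have changed them. A gap that holds a whole empty bin is too wide to be joined, and a bin with a peak keeps it. That setting therefore says nothing about how stable the counts are.

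The calls among libraries without NSD2 depended on the scale and on the fit. For KO clones minus dTAG clones at day 21 (53 higher, 18 lower) scaling by called length gave 29 higher and 23 lower, equal length, with 265 members tested, 3 and 0, all 15 groups in the fit 182 and 113, a -log10 q of at least 2, with 1584 tested, gave 4 and 1, and joined peaks 30 and 3. Over all bins, in the same order, the calls were 1319 and 274 of 51913, 70 and 28 of 27545, 2921 and 1080 of 49801. Then came 207 and 11 of 44481, and 1306 and 57 of 56711. For KO clone 3 minus KO clone 12 (41 and 0) scaling gave 1 higher, equal length 3, all 15 groups 340 and 2 lower, a -log10 q of at least 2 gave 11, and no filter on coverage 1 lower. Over all bins, in the same order, the calls were 98 and 39, 16 and 34, 4123 and 73, 189 and 12, and 2789 and 169. The last setting tested 81144 bins. With all 15 groups, day 21 minus day 7 gave 112 higher and 7 lower, and dTAG clone 8 minus clone 11 gave 1 and 9, where the reported counts are 0. Over all 49801 bins of that fit these were 913 and 189, and 7 and 63. The member counts from the fit with all 15 groups are raised by the rule. It sets the libraries with NSD2 to 0 at every member, which lowers the error. Leaving out each library gave 11 to 60 higher and 3 to 22 lower for KO clones minus dTAG clones at day 21, 1 to 53 higher and 0 to 0 lower for KO clone 3 minus clone 12, and 0 to 0 in both directions for the other 2 comparisons. With a replicate block the counts were 66 higher and 26 lower for KO clones minus dTAG clones at day 21, and 67 higher for KO clone 3 minus clone 12. Over all 55029 bins they were 2433 and 291 for the first, and 1414 higher for the second. Over 28 pairs of groups the difference of replicate 1 minus replicate 2 had a correlation of -0.001 to 0.40 (median 0.09), and 1 of the 28 was negative. In 16 of 16 libraries the strongest correlation was with the same number. The 2 libraries of a group mirror each other in this measure, so the 16 are not separate counts. The samples share a number, and whether they are paired is not settled by this. Replicate 1 had the longer list in 13 of 15 groups.

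For the 15 bins named from these contrasts, 219 of 333 alternative values stayed called, 113 kept their direction without a call and 1 reversed, ARSB at -log10 q of at least 2 (-0.774). At that q 2 of the 15 stayed called, DGKB and FMNL2, and with joined peaks 5 did. All 15 did with all 15 groups in the fit, where the rule lowers the error. Without single libraries 4 of the 15 always stayed called and 11 lost the call with 2 to 13 of the 16 libraries left out. The causes were not tested. Because depth is unknown and the peaks are weak, a bin without a peak is not shown to lack the mark.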
